A study of Mus musculus with 2 samples.

Results

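C1q macrophages without markers of another state were the cells of the plantaris muscle that carried macrophage and complement C1q transcripts but few or no transcripts of the resident, Ly6c2, Spp1 or interferon states. They numbered 718 of 18975 kept cells, 52 of 7738 in the sham library and 666 of 11237 in the tenotomy library. A kept cell had at least 500 unique molecular identifiers (UMIs, the counted transcript molecules), at least 300 genes and at most 10% mitochondrial UMIs. A member had at least 3 UMIs summed over Csf1r, Cd68, Mpeg1 and Ms4a6c and at least 10 over C1qa, C1qb and C1qc. It also had fewer than 3 UMIs of the neutrophil genes Csf3r and Retnlg and fewer than 2 of the dendritic cell genes Cd209a and Flt3. Each of the following sums was below 5: the resident genes Lyve1, Cd163, Timd4, Cd209f and Folr2, the monocyte genes Ly6c2, Chil3, Plac8 and Vcan, the lipid-type genes Spp1, Gpnmb, Fabp5 and Arg1, and the interferon response genes Rsad2, Ifit1, Ifit2 and Ifit3. The members were chosen by the measured UMIs of these 28 genes, so the levels of these genes are description only.

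The study asked how living mononuclear cells of the plantaris, a plantar flexor of the lower hindlimb, differed after tenotomy, the surgical cutting of a tendon. The mice were 5 C57BL/6 males of 12 weeks, operated on one side, with the opposite plantaris serving as sham. Muscles were taken 4 days later, pooled by side into groups of 5, and digested over 90 min in type II collagenase at 0.2%. Cells positive for the live-cell dye Calcein AM and negative for propidium iodide were sorted and gave 1 single-cell RNA library (10x Chromium, 3-prime) per side. The labels name no genetic change, so the groups shared mice, age, sex and digestion and differed in the operation and the library. With 1 library per side there is no test and no p-value: treatment and library cannot be told apart, and values in brackets are 95% intervals that cover counting error only.

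C1q is the recognition molecule of the classical complement pathway, assembled from the products of C1qa, C1qb and C1qc, and it binds immune complexes and dying cells. Tissue macrophages are its main source. Monocytes that enter damaged muscle become macrophages there, clear debris and pass through inflammatory and repair-associated states. Ms4a7 encodes a membrane-spanning protein of the Ms4a family and is a marker of macrophages rather than of circulating monocytes.

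The genes that define the cells lie close together in the case of C1q. On the mm10 assembly, with GENCODE M21 gene models, the protein-coding genes C1qb (chr4:136880129-136886187), C1qc (chr4:136889804-136893065) and C1qa (chr4:136895917-136898803) follow each other on the minus strand, and Ms4a7 lies on chr19:11321039-11336146, also on the minus strand. The 250 bases before the start site are shown for C1qb and for the first of 2 starts listed for Ms4a7, since C1qb chose the cells at a like level in both libraries while Ms4a7, which was not used, differed. The sequences are from RefSeq (GRCm38.p6), at chr4:136886201-136886450 and chr19:11336147-11336396, minus strand, read 5′ to 3′. Capitals mark GAGGAA, 1 form of the site of ETS factors such as PU.1, and TGCTGA, part of the site of MAF factors. Both were searched on both strands, with no overlap between the motifs. Shorter or other forms of these sites were not searched.
C1qb: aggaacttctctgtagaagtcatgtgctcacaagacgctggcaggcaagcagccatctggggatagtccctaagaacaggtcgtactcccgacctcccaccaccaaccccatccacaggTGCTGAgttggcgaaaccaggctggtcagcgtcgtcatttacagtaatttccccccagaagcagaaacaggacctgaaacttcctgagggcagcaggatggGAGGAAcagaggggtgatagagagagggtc
Ms4a7: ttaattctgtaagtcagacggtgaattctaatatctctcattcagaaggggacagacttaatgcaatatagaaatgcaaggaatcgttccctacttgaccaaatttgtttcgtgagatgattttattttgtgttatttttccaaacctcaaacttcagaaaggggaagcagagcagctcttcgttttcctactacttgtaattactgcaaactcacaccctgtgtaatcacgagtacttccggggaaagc
The C1qb window held 1 match of each motif and the Ms4a7 window held none, which says only that these letters are not in that window. That of C1qc, not shown because it overlaps the gene model given above, held 1 GAGGAA and no TGCTGA. Over the same window of 32851 promoters, 23.2% held GAGGAA, 16.1% held TGCTGA and 3.68% held both. Spi1, which encodes PU.1, stood at 356 CPM (UMIs per 1000000 UMIs of the member cells) in sham and 475 in tenotomy.

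The files held 8463 barcodes in sham and 11950 in tenotomy, with 47781353 and 94556283 UMIs. The members were shallower in sham, with a median of 3440 UMIs (range 637 to 20670) against 5855 (733 to 35945) in tenotomy, and with 1407 against 1992 genes. Summed over cells, their UMIs came to 300563 in sham and 4083643 in tenotomy, so the sham value sets the precision of each comparison. No barcode was shared between the members of the 2 libraries, while 29 were shared among kept cells. Doublet scores were over the threshold in 3 sham and 21 tenotomy members (5.77% and 3.15%), against 2.65% and 2.75% of kept cells, and none were removed.

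The C1q genes, Csf1r and Cd68 took part in the choice of the cells, so their levels describe the members and do not check the label. C1qa had 2718 CPM in sham and 2977 in tenotomy, C1qb 3171 and 3477, and C1qc 1900 and 1533. The summed level per cell was 85.4 UMIs per 10000 in sham (quartiles 53.6 and 124) and 73.6 in tenotomy (49.1 and 106), with ranges of 11.5 to 266 and 7.35 to 292 that overlapped. Of 8 pan-macrophage markers all were detected in each library, at 4195 and 3954 CPM in sum. They included Adgre1, which encodes F4/80 (280 and 394 CPM), and the growth factor receptor Csf1r (709 and 661 CPM). Csf1r was used to choose the cells and Adgre1 was not. Neutrophil markers summed to 193 CPM in sham (5 of 8 detected, with Retnlg, Cxcr2 and Ly6g at 0) and to 142 in tenotomy (8 of 8), and the selection capped Retnlg. B cell markers summed to 270 CPM in sham (5 of 7, with Ms4a1 and Pax5 at 0) and to 149 in tenotomy (6 of 7, with Ms4a1 at 0).

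The sham members also carried transcripts of other cells. Mesenchymal markers, all 7 detected in each library, summed to 7167 CPM in sham and 1090 in tenotomy, and endothelial markers, also all 7, to 2266 and 236. Erythroid markers came to 9968 CPM in sham, above the 7789 CPM of the C1q sum, and to 62.9 in tenotomy, with 5 of 7 detected in sham (Klf1 and Car1 at 0). The highest sham cell had 1806 erythroid UMIs per 10000. In 24 of the 52 sham cells and 15 of the 666 tenotomy cells, markers of other cell types made up over 1% of UMIs. These 24 cells had a median of 2696 UMIs and 0.248% mitochondrial UMIs, against 6965 and 3.08% in the other 28 sham members. The 28 sham and 651 tenotomy cells with at most 1% are called members without other markers, but they still held such transcripts. Mesenchymal markers stood at 1414 CPM in these sham cells and 468 in these tenotomy cells, and endothelial markers at 1595 and 139. The member shares, the folds and list values between libraries, and the counts of genes apart from resident-sum cells were also computed on these cells. For the thinned shares, the overlaps, the MHC class II ranges and the comparisons with Spp1 and Ly6c2 cells this was not done, and the part of these transcripts in them was not tested.

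The members were a larger share of the kept living cells in the tenotomy library, while their share of the macrophages depended on how they were selected. They made up 0.672% (0.502 to 0.880) of kept sham cells and 5.93% (5.50 to 6.38) of kept tenotomy cells, a ratio of 8.82 (6.66 to 11.7). Among cells with the macrophage sum they were 12.4% (9.36 to 15.9) in sham and 12.5% (11.6 to 13.4) in tenotomy, a ratio of 1.01 (0.776 to 1.32). Among C1q-positive macrophages, 293 in sham and 3398 in tenotomy, they were 17.7% (13.6 to 22.6) and 19.6% (18.3 to 20.98), with a ratio of 1.10 (0.855 to 1.43). The intervals of the last 2 ratios include 1. Without the cells carrying other markers, the share among C1q-positive macrophages was 9.56% in sham and 19.2% in tenotomy, and the ratio of shares of kept cells was 16.0. Such cells were left out of the members only and stayed in the totals, so both sham shares are lowered by construction. With a C1q limit of 20 UMIs these shares of C1q-positive macrophages were 12.9% and 18.0%.

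The resident, Spp1 and Ly6c2 states differed more between the libraries than the members did, and the interferon state did not. The resident sum reached 5 in 79.9% of the C1q-positive sham cells and 24.7% of the tenotomy cells, and the Spp1 sum in 5.12% and 63.2%. The Ly6c2 sum did so in 1 sham cell and 411 tenotomy cells, and the interferon sum in 6.83% and 6.68%. Of the C1q-positive cells, 8.53% in sham (25) and 22.2% in tenotomy (756) carried 2 or more such sums. The plot of C1q-positive macrophages by state sum shows these shares.

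**Figure D1:**
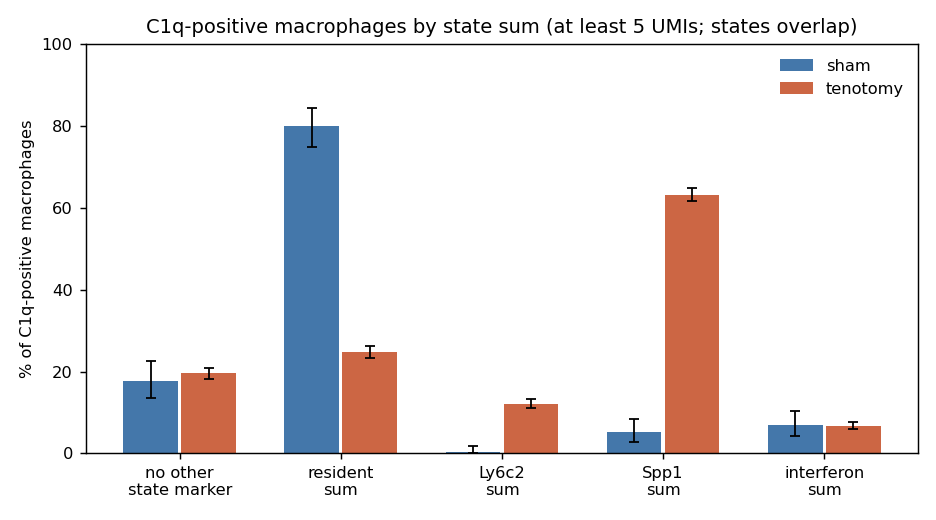
Share of C1q-positive macrophages (vertical axis, percent) with each state sum at 5 UMIs or more, and with none of them, in sham (293 cells) and tenotomy (3398 cells); bars are shares and whiskers are 95% Clopper-Pearson intervals. The group with no other state marker is at 17.7% and 19.6%, while the resident and Spp1 groups stand far apart between the libraries, and a cell can be in more than 1 state group.

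The limits cut through a range of values. In tenotomy, 54 members had all 4 state sums at 0, 454 had a highest sum of 1 to 3 and 158 had a highest sum of 4. Just outside, 255 cells had a highest sum of 5 or 6. Mrc1, the mannose receptor, had 1033 CPM just inside and 1039 just outside, and Ms4a7 had 564 and 475. In sham, 2 members had all sums at 0, 40 had 1 to 3 and 10 had 4, with 23 cells just outside. There Ccr2 had 291 CPM just inside and 30.8 just outside, and Ms4a7 172 and 355. At the C1q limit, 44 tenotomy members had 10 to 12 C1q UMIs and 47 cells just outside had 7 to 9, with Apoe at 8429 and 5453 CPM. With all limits applied to cells thinned to 2000 UMIs, the members were 35.9% of C1q-positive cells in sham and 47.3% in tenotomy, so the share depends on the depth at which the limits are applied.

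Ms4a7, named as a marker of these cells but not used to choose them, was higher in tenotomy. It had 58 UMIs in 22 of 52 sham cells (193 CPM) and 2001 UMIs in 482 of 666 tenotomy cells (490 CPM), a 2.54-fold difference (1.96 to 3.36). At 2000 UMIs per cell, which left out 13 sham and 28 tenotomy members, 17.9% of sham cells (7 of 39, 7.54 to 33.5) and 50.2% of tenotomy cells (320 of 638, 46.2 to 54.1) had an Ms4a7 UMI. The unthinned shares were 42.3% and 72.4%. Endothelial cells, which should lack the transcript, had thinned shares of 0.234% and 2.28%, at median depths of 3751 and 3323 UMIs. They were gated by at least 3 UMIs over Pecam1, Cdh5 and Kdr and no UMI of the macrophage sum. The gate can thus understate free macrophage RNA. Both member shares stood above the level in these endothelial cells. Without the cells carrying other markers the fold was 2.17 (1.64 to 2.95).

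Part of the Ms4a family was higher as well. A list member was measured with at least 25 UMIs over both libraries and a fold that could be computed. Of 7 measured Ms4a genes outside the selection, Ms4a7 included, 4 reached a 2-fold higher level in tenotomy and none a 2-fold lower one, with a median log2 fold of 1.18. In the members without other markers 4 were higher and 1 lower. Over all 8246 genes with at least 25 UMIs, 14.4% passed 2-fold upward and 10.3% downward, with a median of 0.15. These shares are the background of each list count between the libraries given below. For the members without other markers the counts were 1177 and 713 of 7745 genes, and for resident-sum cells 1114 and 1272 of 10509. Ms4a4c went from 2 UMIs to 568 (6.65 and 139 CPM, 20.9-fold, 5.76 to 173), Ms4a6d from 116 to 341 CPM and Ms4a6b from 126 to 286 CPM.

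Across the genome, a gene was measured where the higher library had at least 50 CPM and 25 UMIs and at least 10% of its level over all cells of that library. Of 2772 measured genes, 322 (11.6%) passed 2-fold upward in tenotomy and 198 (7.14%) passed it downward. The median log2 fold of these genes was 0.31. Divided by that median, 156 genes were higher and 276 lower, and with a minimum of 100 CPM in place of 50 the counts were 136 and 160. The balance between directions thus depends on the scaling and on the filter.

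The 12 genes ranked highest in tenotomy were Il1rn, Il10, Clec4e, Apoc2, Thbs1, Ms4a4c, Clec4d, Odc1, Mxd1, Csf2rb, Slc7a11 and Tnfrsf1b. Il1rn, which encodes the interleukin 1 receptor antagonist, had 4 UMIs in 1 sham cell and 1346 UMIs in 344 tenotomy cells (13.3 and 330 CPM, 24.8-fold, 9.65 to 91.0). Il10, an anti-inflammatory cytokine, had 3 UMIs in 1 sham cell and 1012 in 228 tenotomy cells (9.98 and 248 CPM, 24.8-fold, 8.47 to 121). At 2000 UMIs, an Il10 UMI was found in 0 of 39 sham cells, which allows up to 9.03%, and in 21.6% of tenotomy cells (18.5 to 25.03). Both transcripts were thus found in 1 sham member each but in many tenotomy members.

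The C-type lectins Clec4e and Clec4d, which sense microbial glycolipids and products of dead cells, were also higher. Clec4e had 49.9 and 539 CPM (10.8-fold, 6.53 to 19.3) and Clec4d 36.6 and 286 CPM (7.80-fold, 4.34 to 15.7). Their relative Clec4n stood at 33.3 and 186 CPM. In the list of Fc receptors and innate sensors 5 of 16 measured genes reached 2-fold higher levels and none 2-fold lower ones, with a median of 0.43. Among the 5 was the immunoglobulin G receptor Fcgr4, with 2 UMIs in sham and 312 in tenotomy (11.5-fold, 3.15 to 95.2). The lipopolysaccharide co-receptor Cd14 had 2286 CPM in sham and 1455 in tenotomy.

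Thbs1, which encodes the matricellular protein thrombospondin 1, had 60 UMIs in 14 sham cells and 6152 UMIs in 458 tenotomy cells (200 and 1506 CPM, 7.55-fold, 5.86 to 9.90). Odc1, the first enzyme of polyamine synthesis, had 59.9 and 380 CPM (6.34-fold, 4.00 to 10.7). Slc7a11, the cystine transporter subunit, had 153 and 671 CPM (4.38-fold, 3.28 to 6.00). Also ranked were Mxd1, a Myc antagonist (26.6 and 204 CPM), the shared cytokine receptor chain Csf2rb (59.9 and 338 CPM) and the tumour necrosis factor receptor Tnfrsf1b (53.2 and 277 CPM). Apoc2, an apolipoprotein that activates lipoprotein lipase, had 0 UMIs in sham and 305 in 181 tenotomy cells, at least 7.48-fold higher against a floor of 3 counts over the sham members. All 12 stayed at least 2-fold higher without the cells carrying other markers. In C1q-positive cells with the resident sum, from the same libraries, the same 12 also differed in this direction, from 2.81-fold for Tnfrsf1b to 90.6-fold for Apoc2 (1 UMI in sham).

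**Figure D2:**
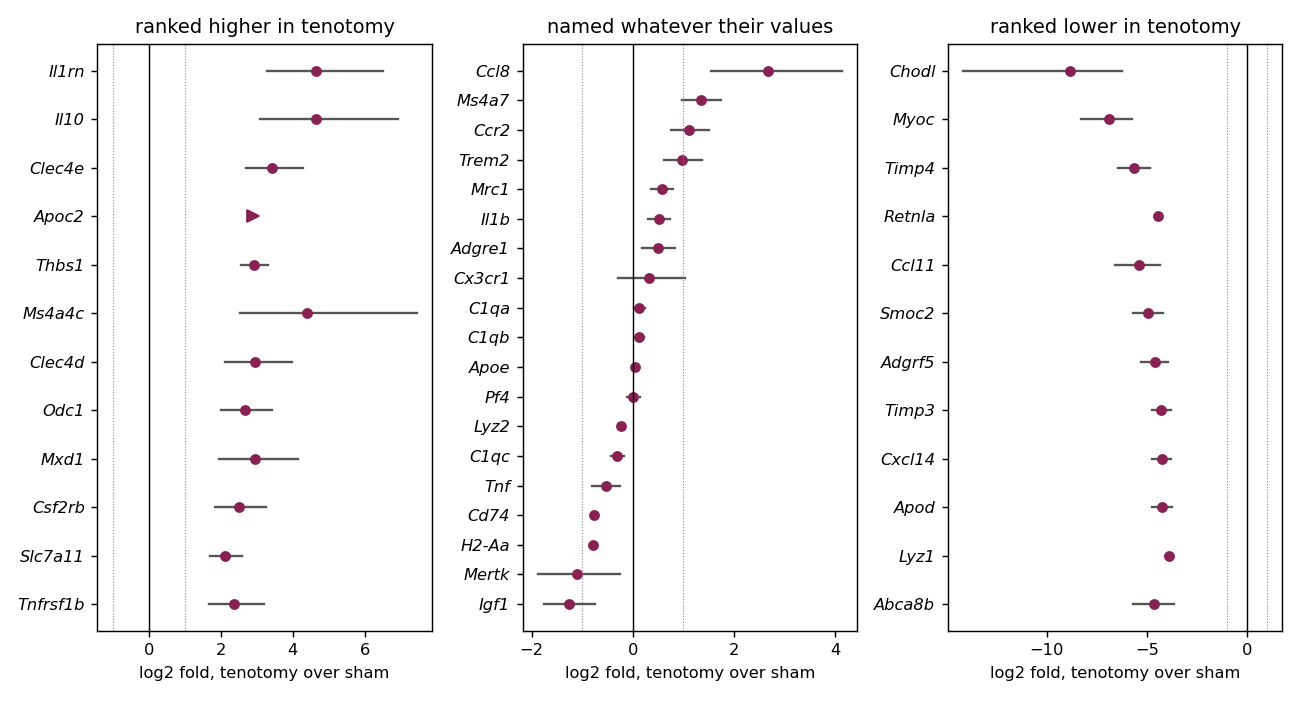
Log2 fold of tenotomy over sham in the members (horizontal axes) for the 12 genes ranked highest, 19 genes named whatever their values and the 12 ranked lowest; points are folds, lines are 95% counting intervals, the arrowhead marks a lower bound for Apoc2 and dotted lines mark 2-fold. C1qa, C1qb, Apoe and Pf4 lie near 0, Il1rn and Il10 at 4.63 and Retnla at -4.45.

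The 12 genes ranked lowest in tenotomy were mostly genes that stromal or endothelial cells express. Smoc2 had 54 UMIs in sham and 24 in tenotomy (180 and 5.88 CPM), the chemokine Ccl11 had 31 and 10 UMIs, and Cxcl14 had 88 and 62. Chodl, with 33 sham UMIs, had 97.0% of them in 1 cell. The others named by the rank were Myoc, Timp4, Adgrf5, Timp3, Apod, Abca8b, Lyz1 and Retnla. Without the cells carrying other markers Cxcl14 stood at 9.30 CPM in sham and 7.65 in tenotomy, and Smoc2 at 27.9 and 3.57. Ccl11 and Abca8b each stood at 4.65 and 1.02 CPM there, Myoc at 41.85 and 0.765 and Chodl at 153.5 and 0.255. Timp3 stayed at 279 and 9.4 CPM, Timp4 at 205 and 3.06, Adgrf5 at 186 and 4.3 and Apod at 135 and 4.3. Such transcripts thus remained in part in the sham members that were left.

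Retnla and Lyz1 are macrophage genes. Retnla, which encodes a secreted protein of alternatively activated macrophages, had 1876 UMIs in 22 of 52 sham cells and 1167 in 28 of 666 tenotomy cells (6242 and 286 CPM). A single cell held 44.1% of the sham UMIs and another 49.4% of the tenotomy UMIs. In the members without other markers Retnla stood at 8236 CPM in sham and 260 in tenotomy. Lyz1, a second lysozyme gene, had 421 UMIs in 14 sham cells and 383 in 81 tenotomy cells (1401 and 93.8 CPM). Of its sham UMIs 40.6% lay in 1 cell, and its log2 fold ran from -4.31 to -0.55 under other ways of processing. In resident-sum cells Lyz1 was 1.55-fold higher in tenotomy (1.26 to 1.91), while Retnla was 0.0838-fold (0.0780 to 0.0900). Reads of Lyz1 and its near copy Lyz2 can be hard to part, and Lyz2 stood at 10081 and 8570 CPM.

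Genes of MHC class II antigen presentation were lower in tenotomy by less than 2-fold. Cd74, the invariant chain, had 17657 CPM in sham and 10375 in tenotomy (0.588-fold, 0.571 to 0.605), H2-Aa 7612 and 4428 and H2-Eb1 6145 and 3110. None of 10 measured members was 2-fold apart, but 7 had an interval wholly below 1, against 10.2% of all genes, and the median was -0.77. Single cells spread widely in both libraries. The summed level per 10000 UMIs had quartiles of 22.5 and 503 around a median of 240 in sham, and of 17.4 and 350 around 160 in tenotomy. Without the cells carrying other markers the median log2 fold of the list was -0.96, with 2 of 10 genes at least 2-fold lower. In the resident-sum cells of the same libraries it was -2.15, with 7 of 9 at least 2-fold lower. Of all genes, 713 of 7745 were at least 2-fold lower in the first case and 1272 of 10509 in the second. The difference between these cell groups was not tested.

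Among the members, cells with much and with little MHC class II transcript differed in other genes. With limits of 20 and 200 UMIs per 10000, chosen after the values were seen, 12, 12 and 28 sham cells and 173, 191 and 302 tenotomy cells were low, middle and high. In tenotomy, Pf4, a chemokine of resident-type macrophages, had 3271 CPM in low, 2269 in middle and 1040 in high cells, and Mrc1 1248, 896 and 724. Il1b, which encodes interleukin 1 beta, ran the other way with 261, 672 and 1373 CPM, as did Thbs1 with 416, 1403 and 2135. In sham the order was the same for Pf4 (3856, 2104 and 1581 CPM) and for Il1b (0, 82.5 and 845). The sham high cells were also the deepest, at a median of 6965 UMIs against 1983 in low cells, and in tenotomy these medians were 6088 and 5277.

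Immediate early and stress genes, which cells switch on soon after a stimulus, were lower in tenotomy. Of 30 measured genes 22 passed 2-fold downward and none upward, with a median of -1.47. Egr1 had 888 and 98.7 CPM, Klf2 559 and 62.7, Jun 1647 and 257 and the heat shock gene Hspa1a, whose reads its near copy Hspa1b can share, 6099 and 1042. Ier3 was the exception with an interval above 1 (1650 and 2077 CPM). The summed level per 10000 UMIs had a median of 347 in sham (range 98.8 to 1844) and 147 in tenotomy (26.4 to 688). The same 30 genes had a median of -1.39 in resident-sum cells, again with 22 at least 2-fold lower, and of -1.40 in the members without other markers.

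**Figure D3:**
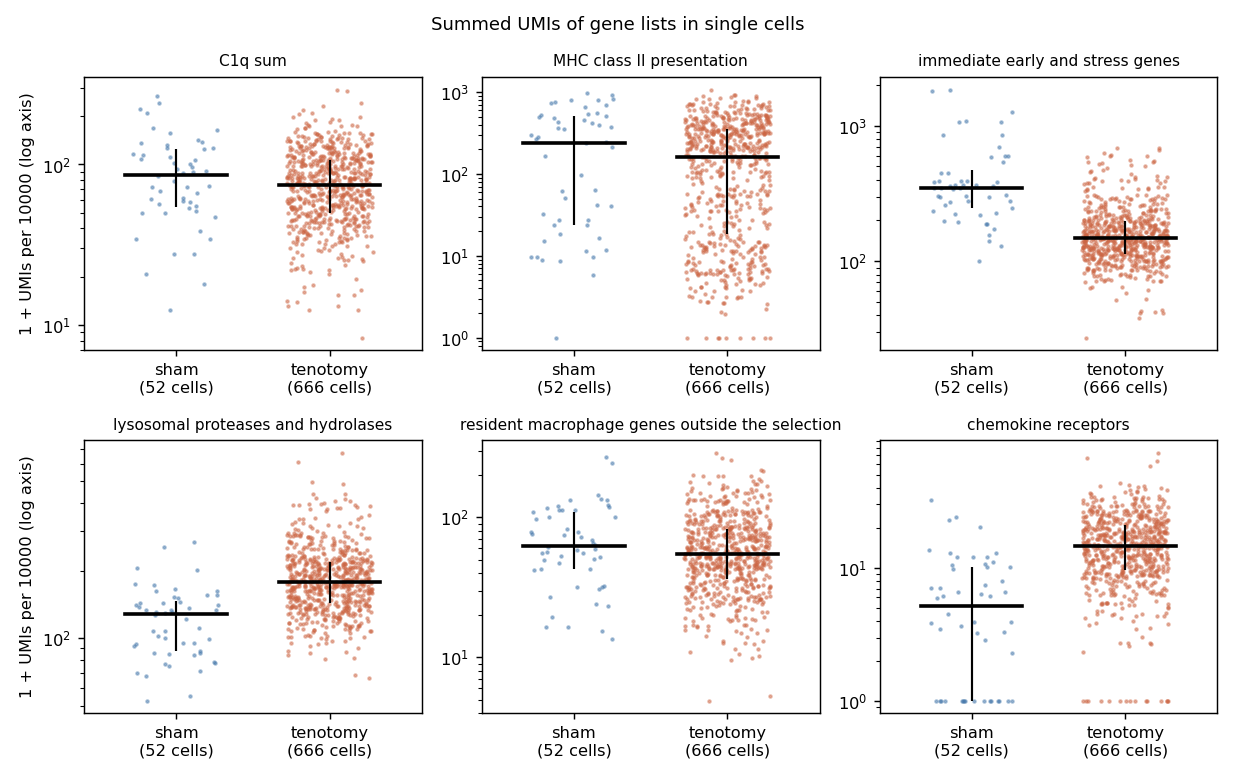
Summed UMIs per 10000 of 6 gene groups in single member cells (points; log axis, 1 added), with sham at left and tenotomy at right in each panel; horizontal bars are medians and vertical lines run between quartiles. C1q sums overlap, MHC class II sums range from 0 to 1071, immediate early sums are lower in tenotomy (medians 347 and 147) and chemokine receptor sums higher (4.19 and 13.7).

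Lysosomal genes were higher in tenotomy. Of 23 measured genes 5 passed 2-fold upward and 1 downward, while 15 had an interval above 1, against 13.8% of all genes, and the median was 0.63. Ctsa, protective protein cathepsin A, had 143 and 336 CPM (2.35-fold, 1.73 to 3.26), Grn, which encodes progranulin, 406 and 943, and Lgmn, an asparagine-specific protease, 635 and 1399. The exception was Ctsk, a collagen-degrading protease, with 13 UMIs in sham and 26 in tenotomy. Leaving out the cells carrying other markers, 8 of 22 were higher and none lower. Ctsk then had too few UMIs to count as measured, 8 in sham and 16 in tenotomy. It was still lower in tenotomy, at 37.2 and 4.08 CPM. The abundant proteases Ctsb (1850 and 2873 CPM) and Ctss (842 and 1404 CPM) differed by under 2-fold.

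Lipid genes split. Of 18 measured genes 6 passed 2-fold upward and 4 downward, with a median of 0.70. Plin2, the coat protein of lipid droplets, had 263 and 622 CPM, Lgals3, which encodes galectin 3, 915 and 2088, and Lipa, lysosomal acid lipase, 133 and 274. Lower were Fabp4 (1431 and 153 CPM), which capillary endothelium also expresses, and the fatty acid receptor Cd36 (529 and 148). Apoe, the most abundant of them, had 10361 and 10653 CPM, and Trem2, a lipid-sensing receptor, 206 and 407. Of 21 measured lipid-type macrophage genes outside the selection, 7 passed 2-fold upward and 4 downward (median 0.69). Leaving out the cells carrying other markers, the lower genes were 2 of 18 in the lipid list and 1 of 20 in this one.

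Chemokine receptors were higher and several of the ligands lower in tenotomy. Ccr2, the receptor that brings monocytes into tissue, had 64 UMIs in sham and 1883 in tenotomy (213 and 461 CPM, 2.17-fold, 1.69 to 2.82). At 2000 UMIs, 23.1% (11.1 to 39.3) of sham and 53.0% (49.0 to 56.9) of tenotomy members had a Ccr2 UMI, while endothelial cells stood at 0.0668% and 0.9497%. Ccr1 had 130 and 295 CPM and Cmklr1, the chemerin receptor, 4 and 172 UMIs, a direction that turned (log2 fold -0.55) with limits on thinned cells. In all, 4 of 6 measured receptors were at least 2-fold higher, with a median of 1.08, and 2 of 6 without the cells carrying other markers. Cx3cr1, the fractalkine receptor, had 73.2 and 92.3 CPM, and its interval included 1.

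Of 17 measured ligands 7 passed 2-fold downward and 2 upward (median -0.41), and 4 and 2 without the cells carrying other markers. Ccl3 and Ccl4, chemokines that attract monocytes and T cells, had 1760 and 374 CPM and 3377 and 702 CPM, and Ccl24, an eosinophil attractant, 290 and 56.3. Ccl8 was higher, with 6 UMIs in sham and 523 in 141 tenotomy cells (19.96 and 128 CPM, 6.42-fold, 2.93 to 17.6). Cxcl3 was also higher, with 93.3% of its 30 sham UMIs in 1 cell. Cxcl2, a neutrophil attractant, was abundant and about level at 7200 and 7459 CPM.

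Other cytokines and growth factors moved both ways, with 3 of 22 measured genes 2-fold or more higher and 7 lower (median -0.20). Il1b had 189 UMIs in 7 sham cells and 3681 in 363 tenotomy cells (629 and 901 CPM, 1.43-fold, 1.24 to 1.67), and 1 cell held 46.0% of the sham UMIs. Without the cells carrying other markers it stood at 860 and 920 CPM (1.07-fold, 0.923 to 1.25), an interval that includes 1. Its thinned share was 15.4% (5.86 to 30.5) in sham and 43.3% (39.4 to 47.2) in tenotomy, so a larger share of tenotomy cells carried it. Igf1, a growth factor for muscle, had 133 and 55.3 CPM (0.416-fold, 0.296 to 0.598), and Tnf 383 and 264.

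Monocyte and resident genes were found in the same members. Of 18 measured monocyte genes outside the selection 6 passed 2-fold upward and 1 downward (median 0.53), and of 14 resident genes outside the selection 1 and 3 (median 0.05). Leaving out the cells carrying other markers, these counts were 3 and 1, and 2 and 1. Mrc1 had 609 and 901 CPM, and Pf4 1916 and 1936. In tenotomy, after thinning, a Ccr2 UMI was found in 54.0% (49.3 to 58.7) of cells with an Mrc1 UMI and in 50.5% (43.2 to 57.8) of cells without one. In sham these shares were 19.0% (5.45 to 41.9) and 27.8% (9.70 to 53.5). For Pf4 in tenotomy, Ccr2 was in 51.0% (46.3 to 55.6) of cells with a Pf4 UMI and in 58.7% (50.8 to 66.2) of those without. Mgl2, a lectin shared with some dendritic cells, had 459 and 87.4 CPM.

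For the uptake of dying cells, 2 of 16 measured genes passed 2-fold upward and 3 downward (median 0.28). Over all genes with at least 25 UMIs, 14.4% passed 2-fold upward and 10.3% downward. The integrin gene Itgav had 29.9 and 145 CPM and the scavenger receptor Stab1 150 and 306, whereas the receptor kinases Mertk (16 and 101 UMIs, 53.2 and 24.7 CPM) and Axl (107 and 51.7 CPM) were lower. Without the cells carrying other markers, Mertk was 0.685-fold (0.335 to 1.63) and Axl 0.756-fold (0.440 to 1.41). Both of these intervals include 1. Thinned shares of Mertk, 7.69% and 5.80%, were close to those of endothelial cells, 4.61% and 3.80%. The endothelial shares of C1qa were 3.00% and 12.0%, and those of Mrc1 0.434% and 2.37%. Whether endothelial cells make Mertk themselves was not tested, so their Mertk share cannot be read as a level of free RNA. Complement genes outside C1q had 2 of 11 2-fold or more higher and none lower (median 0.45), against the same 14.4% and 10.3%. Of these 2 genes, 1 was Itgam, a chain of complement receptor 3 (93.2 and 300 CPM). The other was Cfb, which encodes factor B, with 0 sham UMIs and 156 in tenotomy, at least 3.83-fold higher. In the members without other markers 4 of 11 were higher, against 1177 of all 7745 genes.

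Of 20 measured cell cycle genes 10 reached a 2-fold higher level in tenotomy and none a 2-fold lower one (median 0.92). Mki67 had 5 and 314 UMIs (16.6 and 76.9 CPM). After thinning, at least 2 UMIs over 12 cycle genes were found in 0 of 39 sham cells, which allows up to 9.03%, and in 43 of 638 tenotomy cells (6.74%, 4.92 to 8.97). The unthinned counts were 5 of 52 and 109 of 666. A difference of this size was not detectable at the number of sham cells.

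Among the metabolic lists, the proteasome had 2 of 24 genes at least 2-fold higher and 15 with an interval above 1 (median 0.50), and nuclear oxidative phosphorylation 3 of 27 and 12 (median 0.37). Glycolysis had 4 of 18 at least 2-fold higher (median 0.45), among them the lactate exporter Slc16a3 (23.3 and 103 CPM). In the members without other markers 8 of 24 proteasome and 7 of 18 glycolysis genes were higher by 2-fold or more. Of all genes in those members, 1177 of 7745 were higher by 2-fold or more and 713 lower. Matrix remodelling genes had 8 of 19 higher and 4 lower, and interferon response genes outside the selection 8 of 26 higher and 6 lower. Macrophage transcription factors had 2 of 22 higher (1 without the cells carrying other markers) and 2 lower, the latter being Klf4 (778 and 275 CPM) and Id3 (236 and 55.6 CPM). Iron genes had 1 of 13 in each direction, and 1 of 11 higher and none lower without those cells. The iron gene Slc40a1 then had too few UMIs to count as measured, 6 in sham and 4 in tenotomy. It was still lower in tenotomy, at 27.9 and 1.02 CPM. Interferon genes lower by 2-fold or more were 4 of 26 without those cells. The plot of list medians shows all 22 lists.

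**Figure D4:**
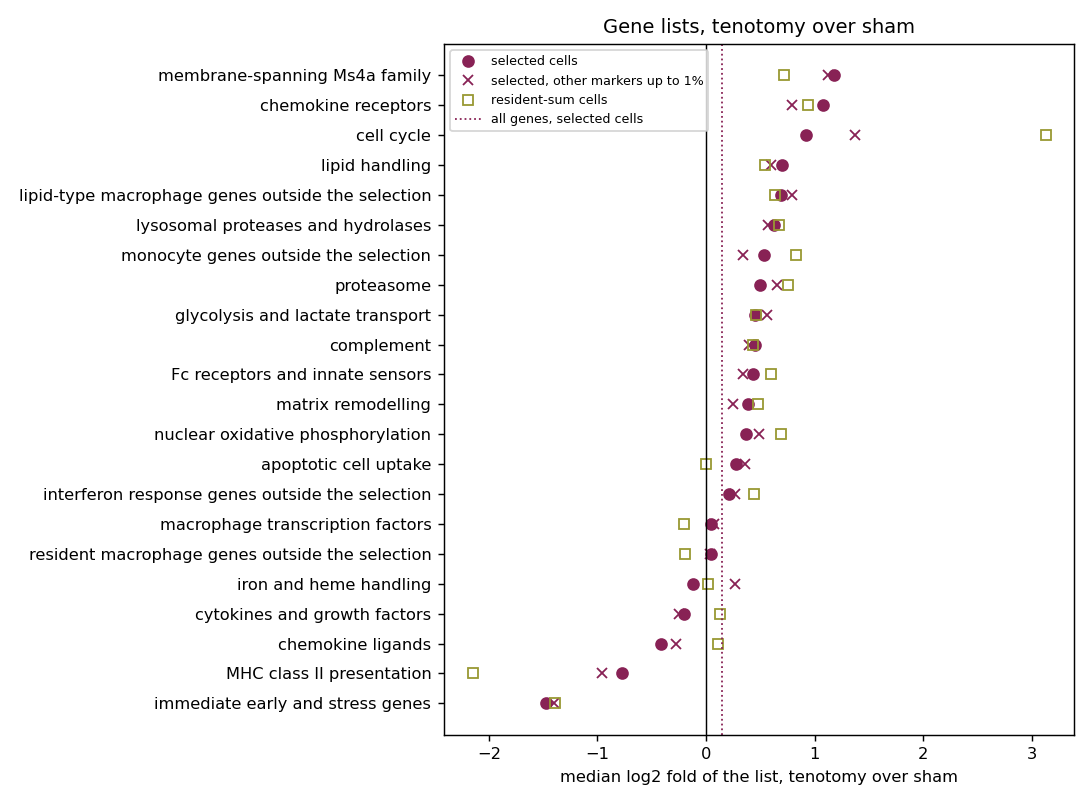
Median log2 fold of tenotomy over sham (horizontal axis) for each of 22 gene lists, in the members (filled circles), in the members without cells carrying other markers (crosses) and in C1q-positive cells with the resident sum (open squares); the dotted line is the median over all genes, 0.15. Immediate early genes lie near -1.4 in all 3, MHC class II is at -0.77, -0.96 and -2.15, and cell cycle at 0.92, 1.37 and 3.13.

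Within each library, the members were set beside the C1q-positive cells with the resident sum, 234 in sham and 838 in tenotomy. The selection parted these groups by 5 resident genes and capped the Ly6c2, Spp1 and interferon sums in the members only. Genes that vary with any of these are a description. The Spp1 sum stood at 73.2 CPM in members against 75.6 in resident-sum cells in sham, and at 251 against 1862 in tenotomy. The comparison was thus not alike in the 2 libraries. In sham 91 of 2747 measured genes (3.31%) were higher by 2-fold or more in the members and 229 (8.34%) lower, and in tenotomy 67 of 3173 (2.11%) and 79 (2.49%). Of 2396 genes measured in both libraries, 28 (1.17%) were higher and 34 (1.42%) lower in both, and 23 and 37 with the cells carrying other markers left out of the members only. The resident-sum cells were deeper, with medians of 6813 and 8432 UMIs.

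In both libraries the members had higher levels of MHC class II genes and of Il1b than resident-sum cells. H2-Eb1 was 4.06-fold higher in sham (3.82 to 4.31) and 10.1-fold higher in tenotomy (9.70 to 10.6), and of the MHC class II list 6 of 9 and 8 of 10 genes were at least 2-fold higher (medians 1.52 and 2.69), against 3.71% and 2.36% of all genes with at least 25 UMIs. Il1b was 17.4-fold (13.1 to 23.4) and 6.56-fold (6.12 to 7.03) higher. In sham its UMIs lay in only 7 of the 52 members, with 46.0% of them in 1 cell, which the counting interval does not cover. Tnf was lower, at 0.611-fold (0.500 to 0.741) and 0.724-fold (0.674 to 0.776), and the cytokine list had medians of -0.30 and -0.16. Also higher were Cytip, a regulator of leukocyte adhesion (24.9-fold and 6.89-fold), the survival gene Bcl2a1d (8.85-fold and 6.01-fold), Plbd1 (9.83-fold and 4.77-fold) and Tnip3, an inhibitor of NF-kappaB signalling (5.35-fold and 4.23-fold). Ccr2 was 4.61-fold and 1.53-fold higher and Cx3cr1 3.06-fold and 2.01-fold. The sham UMIs of Ccr2 lay in 13 members and those of Cx3cr1 in 10.

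Lower in the members were genes of resident macrophages that the selection had not used. Of the resident genes outside the selection 15 of 19 were at least 2-fold lower in sham and 12 of 18 in tenotomy (medians -1.41 and -1.46), against 14.3% and 8.08% of all genes. The scavenger receptor Stab1 stood at 150 against 465 CPM in sham and at 306 against 707 in tenotomy. Gas6, a bridge between dying cells and receptor kinases, stood at 200 against 594 and at 153 against 530. C4b, Ednrb, Fcna and Npl, the others that the rule named, were 0.131-fold to 0.245-fold in sham and 0.136-fold to 0.273-fold in tenotomy. Mrc1 was 0.369-fold and 0.563-fold and Igf1 0.405-fold and 0.315-fold. Trem2 was 1.42-fold (1.06 to 1.88) in sham and 0.718-fold (0.678 to 0.760) in tenotomy. The part in this of the Spp1 sum, which was not capped in resident-sum cells, was not tested. Immediate early genes were level between these groups, at medians of -0.14 and -0.13.

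**Figure D5:**
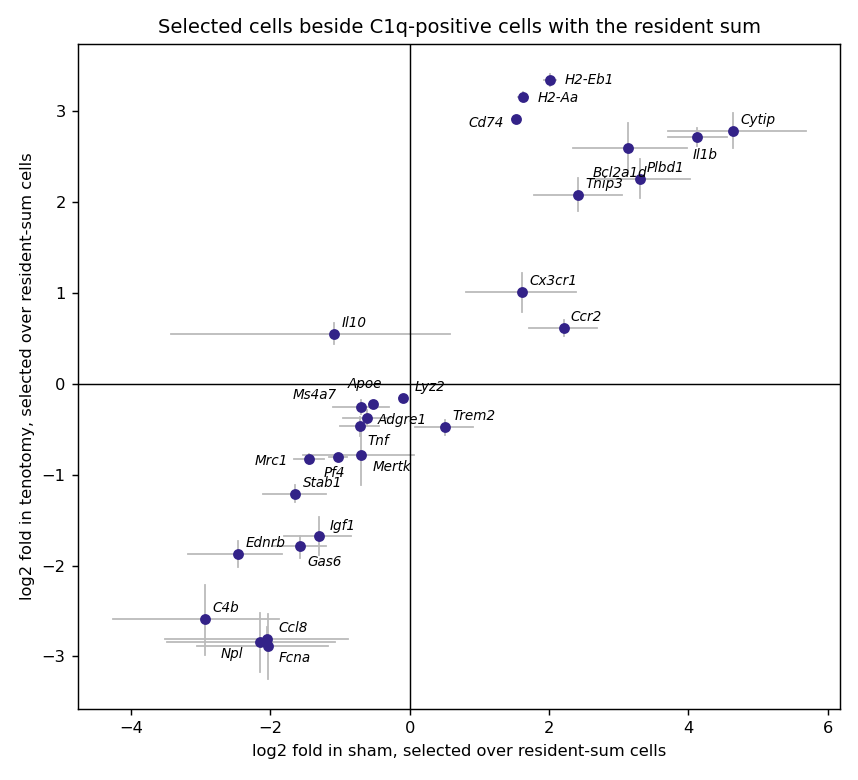
Log2 fold of the members over C1q-positive cells with the resident sum in sham (horizontal axis) and tenotomy (vertical axis) for named genes; points are folds and lines 95% counting intervals. Il1b, Cytip, H2-Eb1 and Ccr2 are above 0 in both libraries, C4b, Fcna, Stab1 and Mrc1 below 0 in both, and Il10 and Trem2 differ in sign. The sham value of Il10 rests on 3 member UMIs, and its interval includes 0.

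In tenotomy the members could also be set beside the 2148 Spp1 cells and the 411 Ly6c2 cells. Against Spp1 cells, 20 of 3039 measured genes (0.658%) passed 2-fold upward and 60 (1.97%) downward. Of the MHC class II list 8 of 10 genes were 2-fold or more higher, against 1.36% of all genes with at least 25 UMIs, 8.76% being lower (median of the list 1.54, Cd74 at 10375 against 3483 CPM), and Mgl2 (87.4 against 21.3) and Ifitm1 (61.5 against 16.0) ranked above them. Lower were Syngr1 (24.2 against 157 CPM) and matrix genes that mesenchymal cells express, Tnc (21.8 against 129), Lox (23.3 against 128), Postn (75.2 against 368), Cald1 and Col5a3. Apoe stood at 10653 against 20117 CPM. Whether transcripts of mesenchymal cells in the Spp1 cells had a part in this was not tested.

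Against Ly6c2 cells, 18 of 3275 measured genes (0.55%) passed 2-fold upward and 261 (7.97%) downward. Higher were Cdkn1c, a cell cycle inhibitor (55.3 against 11.2 CPM), the lectin Cd33 (96.0 against 33.2), Il10 (248 against 98.4), Tnip3, Cd83 (373 against 164) and Mgl2. Lower were the neutrophil granule genes Camp (12.7 against 401 CPM) and Ngp (10.3 against 264), together with Tnc, Postn (75.2 against 1608) and Lox (23.3 against 530). Whether transcripts of mesenchymal cells or neutrophils in the Ly6c2 cells had a part in this was not tested. The Ly6c2 cells had a median Spp1 sum of 7 UMIs, so most of them were Spp1 cells as well. Of 28 interferon response genes outside the selection 14 were 2-fold or more lower in the members (median -0.99), against 12.7% of all genes with at least 25 UMIs, 1.4% being higher. The members were limited in the interferon sum and the Ly6c2 cells were not (42.6 against 316 CPM), so this is a description. Ms4a7 was 1.47-fold (1.37 to 1.57) and Adgre1 1.76-fold (1.63 to 1.91) higher than in Ly6c2 cells, and Ms4a7 0.693-fold (0.661 to 0.727) of the level in Spp1 cells. Genes higher than in resident-sum cells stood closer to the Ly6c2 cells. Of the MHC class II list 0 of 10 genes were 2-fold apart from Ly6c2 cells (median 0.77), with Cd74 at 10375 against 5785 CPM. Il1b was 1.32-fold higher than in Ly6c2 cells and 1.55-fold higher than in Spp1 cells. Cytip was 1.05-fold of the level in Ly6c2 cells, with an interval that includes 1, and 1.41-fold of that in Spp1 cells.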

How the data were processed

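The deposited files hold raw UMI counts per gene and barcode for 1 sham and 1 tenotomy library, which the authors made with Cell Ranger 4.0.0 on mm10, per the submitters' processing notes. Members and gene lists were chosen with earlier results of these data known. Symbols came from GENCODE M21 for 32158 of 32285 identifiers, and Clec7a was not found under that symbol. Counts were summed over member cells and scaled to CPM. Folds have exact conditional binomial intervals and shares Clopper-Pearson intervals (scipy 1.17.1). Genes at 0 on one side were taken at 3 counts. Named were up to 12 measured genes each way by the interval bound nearest to 1, leaving out mitochondrial, ribosomal, uncharacterised, selection, myofibre, erythroid and receptor segment genes; 20 genes whatever their values; up to 3 each way in each list; and up to 6 each way beside other states. Further genes in the text were chosen after their values were seen. Doublets were scored with scrublet in scanpy 1.11.5 (threshold 0.208) and kept. Thinning drew 2000 UMIs per cell. The fold calculation was tested on simulated data. Alternatives covered doublets, limits, filters, scaling and thinning. A few genes that the naming rule or the lists hold are not reported here.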

Additional observations from a re-analysis of the deposited data

How the results depend on the processing

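No paired analysis was possible because each side gave 1 pooled library. The 52 sham cells limit the precision of each comparison. The ratio of shares of kept cells ran from 7.30 to 11.0 over 6 other selections of the cells. It was 16.0 without cells in which markers of other cell types held over 1% of UMIs, an alternative chosen after seeing the data, which also gave a sham share of C1q-positive cells of 9.56%; these cells were taken from the members but not from the totals. That share was 12.9% in sham and 18.0% in tenotomy with a C1q limit of 20 UMIs, 11.3% and 10.3% with a state limit of 3, and 35.9% and 47.3% with limits applied to thinned cells. Genes at least 2-fold higher numbered 136 (with 160 lower) at a minimum of 100 CPM, 597 at 25 CPM, 156 after dividing by the median fold, 506 as a mean over cells and 598 with members thinned. Genes at least 2-fold lower numbered 112 with a state limit of 3, 319 with limits on thinned cells, 118 without cells carrying other markers and 67 with members thinned. Genes higher than in resident-sum cells in both libraries numbered 14 with a state limit of 3. Of 92 named genes at least 2-fold apart, 87 kept their direction in every one of the 13 alternatives that gave a value and 46 stayed at least 2-fold apart. The directions that turned were those of Irf4 (log2 fold -0.43 with a C1q limit of 5 UMIs, -1.42 with limits on thinned cells and -0.08 as a mean over cells), Cmklr1 (-0.55) and Pdgfa (-0.10) with limits on thinned cells, and Fcna (0.00) and Ifi205 (0.06) without cells carrying other markers. The cause was not tested.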
